A study of Mus musculus with 30 samples.

Results

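RNA was sequenced from 30 cultures of fetal mouse testis, and the values given here are those of 10 genes that encode enzymes of mitochondrial fatty acid beta-oxidation. The genes were taken by mouse symbol, mapped from the Ensembl identifiers of the count files: Cpt1a, Cpt2, Acadvl, Acadl, Acadm, Acads, Hadha, Hadhb, Etfdh and Decr1. All 10 were found among the 49315 genes counted, and all 10 were among the 19323 that passed the filter on low counts. Testes of C57BL/6 fetuses were dissected from the mesonephros on gestational day 14 and kept on culture inserts for 24 h. Of the cultures, 15 received DMSO vehicle alone and 6 received MEHP, a monoester of the plasticizer DEHP, at 100 µM. A further 5 received all-trans retinoic acid (ATRA) at 1 µM and 4 received both compounds at these doses (MEHP + ATRA), and every culture held the same dilution of DMSO. No transgene or mutant allele is named in the labels. The labels do not say whether a library came from a separate animal or litter, and the p-values can only reflect how far these libraries scatter, which may be technical.

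Sample titles carry a second number of unstated meaning, which ran from 416 to 465 (lower range) or from 525 to 599 (upper range). The upper range held the 6 MEHP and 6 of the vehicle libraries, and the lower range held every ATRA and MEHP + ATRA library beside 9 vehicle libraries. MEHP was therefore set against upper-range vehicle, and ATRA and MEHP + ATRA against lower-range vehicle. MEHP + ATRA was also set against ATRA, which gives the MEHP difference in the presence of ATRA in libraries that the first comparison does not use. Libraries held 17551454 to 29306917 counts. The testis origin was visible in the markers: Sertoli cell markers summed to 1201 to 2447 CPM (library-scaled counts after TMM scaling) and Leydig cell markers to 1481 to 2411 CPM. Mesonephros and kidney markers summed to 4.83 to 15.1 CPM.

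Beta-oxidation shortens fatty acids in the mitochondrial matrix and passes their electrons to the respiratory chain. Long-chain acyl groups enter as carnitine esters, made by carnitine palmitoyltransferase 1 at the outer membrane and turned back into acyl-CoA by carnitine palmitoyltransferase 2 at the inner membrane. Each turn of the cycle then uses an acyl-CoA dehydrogenase chosen by chain length, a hydratase, a hydroxyacyl-CoA dehydrogenase and a thiolase. For long chains the last 3 activities sit on the mitochondrial trifunctional protein. In liver, the fatty acid receptor PPARα is known to control many of these genes, and MEHP is a known ligand of PPAR receptors.

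With MEHP, the genes of the entry enzyme (Cpt1a), of both trifunctional protein subunits (Hadha, Hadhb) and of the long-chain acyl-CoA dehydrogenase (Acadl) were higher, by 1.25-fold to 1.53-fold. The other 6 genes did not pass the test. Of the 10 genes, 4 rose and 0 fell with MEHP, where 4.72% of all genes tested were called and 2.88% were called higher. In MEHP + ATRA against ATRA, 4 rose and 0 fell, where 3% of all genes were called and 1.62% were called higher. The 4 genes that rose were the same in both comparisons (4 of 4 in each). The share of all genes that rose in both was not counted, so this overlap has no background beside it. The Hadhb call in MEHP + ATRA against ATRA was lost with either replicate block on the first title number (adjusted p = 0.232 within each range and 0.0671 over all libraries, edgeR). ATRA and MEHP + ATRA libraries were not balanced over this number, so their comparison is partly confounded with it. The median log2 fold change over the 10 genes was 0.13 with MEHP (all genes tested: -0.01) and 0.23 with MEHP + ATRA against ATRA (all genes tested: -0.01).

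**Figure D1:**
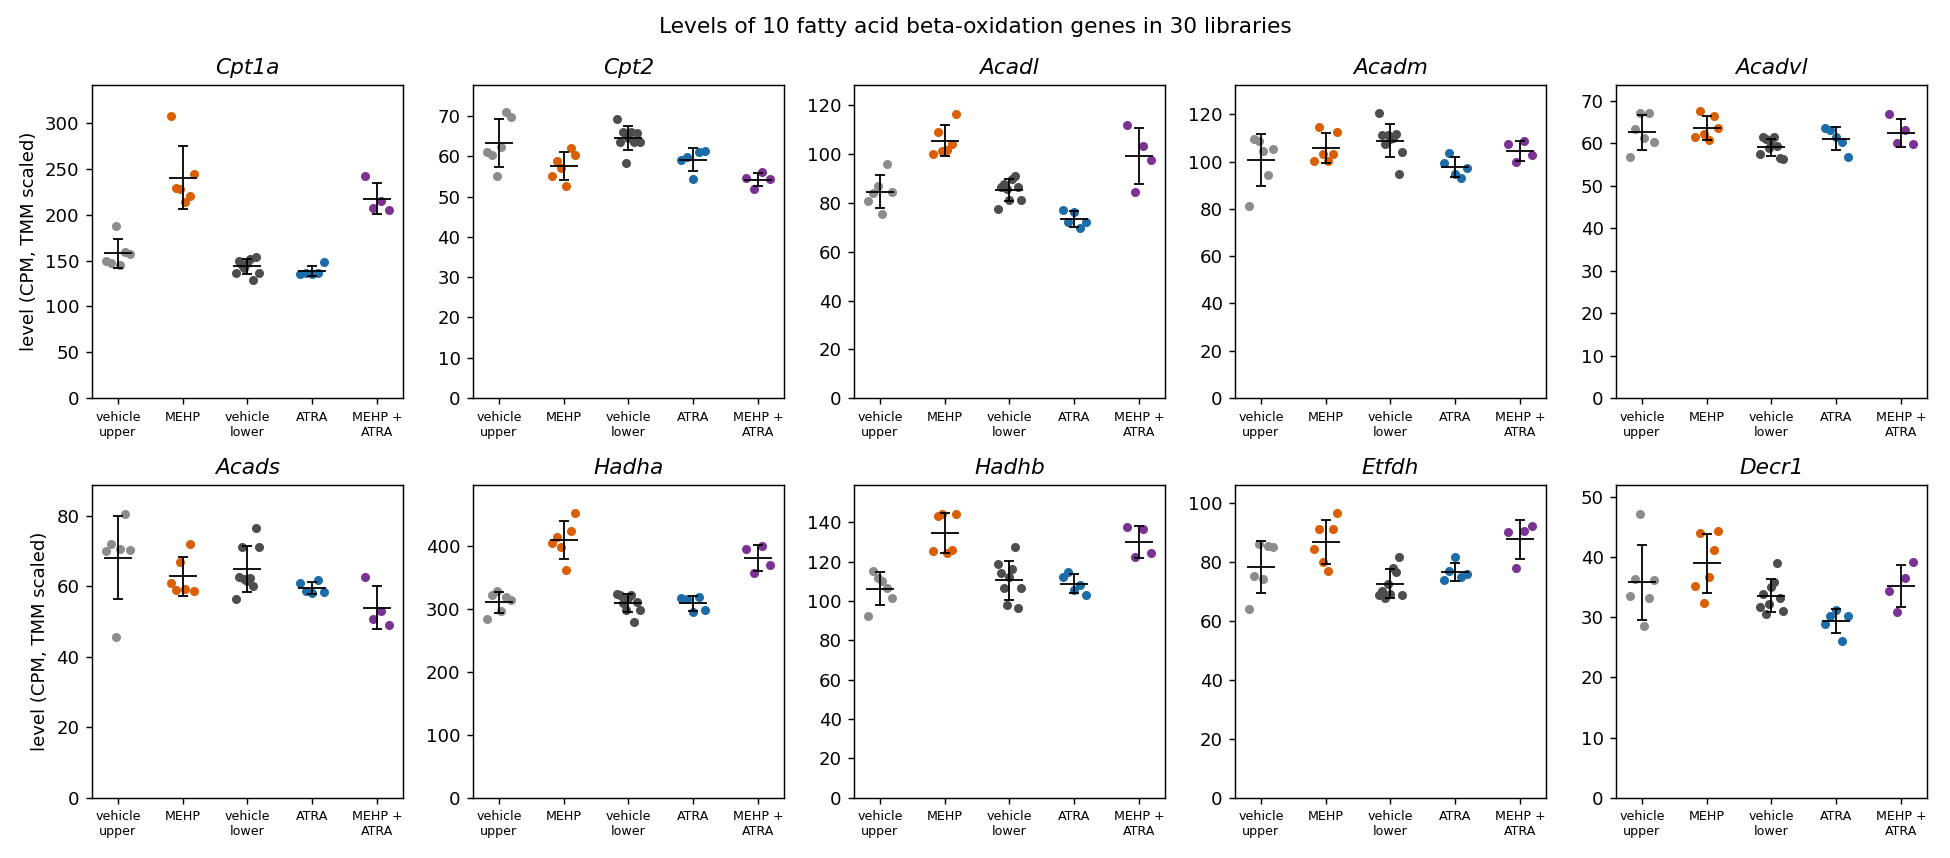
Level in CPM (TMM scaled, y axis from 0) of each of the 10 genes in the 30 libraries, by group. Points are libraries, bars are the mean ± SD, and "upper" and "lower" are the ranges of vehicle libraries (n = 6 upper-range vehicle, 6 MEHP, 9 lower-range vehicle, 5 ATRA, 4 MEHP + ATRA). Cpt1a, Acadl, Hadha and Hadhb stand above their controls in every MEHP library, while Acadvl shows overlapping points in all groups.

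Cpt1a encodes the liver-type isoform of carnitine palmitoyltransferase 1, the malonyl-CoA-sensitive step that controls entry of long-chain fatty acids (ENSMUSG00000024900, chromosome 19, 3323301 to 3385732, plus strand, coordinates as the files give them). Its level was 145 CPM (lowest), 153 CPM (median) and 188 CPM (highest) in the 6 upper-range vehicle libraries. In the 6 MEHP libraries it was 214 CPM, 229 CPM and 308 CPM. Every MEHP library lay above every vehicle library of its range. The mean rose from 158 ± 16 CPM (SD, n = 6) to 241 ± 34 CPM (n = 6), a log2 fold change of 0.61 ± 0.07 (SE; adjusted p = 6.4e-07, edgeR). The 5 ATRA libraries held 136, 137, 136, 137 and 148 CPM, and the 4 MEHP + ATRA libraries held 242, 207, 215 and 206 CPM. These groups did not overlap either, and the difference was 0.65 ± 0.08 in log2 (adjusted p = 7.1e-06, edgeR). Lower-range vehicle libraries held 129 to 154 CPM, so that ATRA alone overlapped vehicle (log2 fold change -0.05, 95% interval -0.19 to 0.09) and MEHP + ATRA lay above it (0.60 ± 0.07, adjusted p = 7.2e-08, edgeR).

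Cpt2 encodes carnitine palmitoyltransferase 2 (chromosome 4, 107903981 to 107923610, minus strand). It was not higher in any group that held MEHP. Upper-range vehicle libraries held 55.1, 61.7 and 71.0 CPM (lowest, median, highest) and MEHP libraries 52.7, 58.0 and 62.2 CPM. These groups overlapped, with a log2 fold change of -0.13 (95% interval -0.24 to -0.02; adjusted p = 0.187, edgeR). The 4 MEHP + ATRA libraries held 54.5, 51.9, 56.1 and 54.4 CPM. All lay below the 9 lower-range vehicle libraries, at 58.4 to 69.2 CPM, as for 8.5% of all genes tested. That fall was 0.25 ± 0.06 in log2 (a log2 fold change of -0.25, adjusted p = 0.0007, edgeR). The ATRA libraries, at 59.0, 59.8, 54.5, 61.1 and 61.4 CPM, overlapped both lower-range vehicle (-0.13 in log2, adjusted p = 0.0908, edgeR) and MEHP + ATRA (-0.12 in log2, adjusted p = 0.376, edgeR).

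Of the 4 acyl-CoA dehydrogenase genes, 1 was called with MEHP. Acadl, for long chains (ENSMUSG00000026003, chromosome 1, 66830839 to 66863277, minus strand), was at 75.6, 84.1 and 95.9 CPM (lowest, median, highest) in upper-range vehicle libraries. In MEHP libraries it was at 100.1, 103 and 117 CPM, again with no overlap. Its mean rose from 84.6 ± 6.7 CPM (n = 6) to 106 ± 6.3 CPM (n = 6), and the log2 fold change was 0.32 ± 0.06 (adjusted p = 0.00054, edgeR). With ATRA alone Acadl was lower: the 5 libraries held 77.2, 72.2, 76.1, 69.6 and 72.1 CPM and lower-range vehicle libraries 77.7, 86.4 and 91.0 CPM (lowest, median, highest). All 5 ATRA libraries lay below all 9 vehicle libraries, as for 4.54% of all genes tested, and the log2 fold change was -0.22 ± 0.06 (adjusted p = 0.0058, edgeR). The MEHP + ATRA libraries held 112, 84.3, 103 and 97.7 CPM, all above the ATRA libraries (0.43 ± 0.07 in log2, adjusted p = 0.00015, edgeR), a comparison that shares the ATRA libraries with the one before. Against vehicle, MEHP + ATRA had 3 of 4 libraries above all 9 (0.22 ± 0.06, adjusted p = 0.0051, edgeR), a call lost without MEHP + ATRA replicate 1 (adjusted p = 0.0587, edgeR).

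Acadvl, Acadm and Acads encode the very-long-, medium- and short-chain acyl-CoA dehydrogenases. Acadvl had a log2 fold change of 0.02 (95% interval -0.07 to 0.11) with MEHP and 0.03 (-0.07 to 0.14) with MEHP + ATRA against ATRA. Acadvl shares 1151 bases of exon with Dvl2 on the opposite strand, which held 72193 counts over all libraries against 38286 for Acadvl. The strand setting of the counting is not given in the sources used here, so the reads of these genes cannot be told apart. Acadm had 0.07 (-0.05 to 0.19) with MEHP and 0.10 (-0.04 to 0.24) with MEHP + ATRA against ATRA, and with ATRA alone -0.16 (adjusted p = 0.0557, edgeR). Acads had -0.12 (-0.30 to 0.07) with MEHP and -0.14 (-0.36 to 0.07) with MEHP + ATRA against ATRA. With MEHP + ATRA against vehicle, Acads fell by 0.27 ± 0.10 in log2 (adjusted p = 0.0335, edgeR), and its 4 libraries held 62.7, 50.8, 53.0 and 49.0 CPM beside 56.3 to 76.4 CPM in vehicle. That call of Acads was lost with a replicate block on the first title number within each range (-0.20, adjusted p = 0.0785, edgeR). Leaving out MEHP + ATRA replicate 2, 3 or 4 or vehicle replicate 5, 13 or 15 also ended it (adjusted p = 0.0555 to 0.137, edgeR).

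Hadha and Hadhb encode the α subunit of the trifunctional protein, with the hydratase and hydroxyacyl-CoA dehydrogenase activities, and the β subunit, with the thiolase activity. They lie back to back on chromosome 5, Hadha on the minus strand (ENSMUSG00000025745, 30118304 to 30155162) and Hadhb on the plus strand (ENSMUSG00000059447, 30155248 to 30184593), with 85 bases between the gene starts in the files. Hadha shares 75 bases of exon with Garem2 on the opposite strand (3562 counts over all libraries against 210648 for Hadha). Hadha was at 285, 316 and 329 CPM (lowest, median, highest) in upper-range vehicle and at 362, 410.1 and 452 CPM in MEHP libraries. Hadhb was at 92.2, 109 and 115 CPM in the same vehicle libraries and at 124, 135 and 144 CPM with MEHP. Neither gene overlapped between these groups. Hadha rose by 0.40 ± 0.05 in log2 (adjusted p = 1.3e-06, edgeR) and Hadhb by 0.34 ± 0.06 (adjusted p = 0.00069, edgeR).

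In the lower range, the ATRA libraries held 317, 317, 295, 319 and 299 CPM of Hadha and the MEHP + ATRA libraries 396, 358, 401 and 369 CPM. For Hadhb the values were 112, 115.0, 105, 108 and 103 CPM with ATRA and 138, 122, 137 and 124 CPM with MEHP + ATRA. Both genes were higher in all 4 co-exposed libraries than in all 5 ATRA libraries. Hadha rose by 0.30 ± 0.06 in log2 (adjusted p = 0.0013, edgeR) and Hadhb by 0.26 ± 0.07 (adjusted p = 0.0445, edgeR). The block values of Hadhb in this comparison were 0.20 within each range and 0.24 over all libraries, where the call was lost. Leaving out ATRA replicate 1, 3, 4 or 5, MEHP + ATRA replicate 1, 3 or 4 or vehicle replicate 2 or 15 ended it as well (adjusted p up to 0.159, edgeR). With ATRA alone both genes overlapped vehicle, with log2 fold changes of 0.00 (95% interval -0.10 to 0.09) for Hadha and -0.02 (-0.15 to 0.10) for Hadhb. Against lower-range vehicle, MEHP + ATRA had Hadha at 0.30 ± 0.05 (adjusted p = 1.8e-05, edgeR) and Hadhb at 0.24 ± 0.06 (adjusted p = 0.0056, edgeR).

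Etfdh encodes the ubiquinone oxidoreductase that takes electrons from the acyl-CoA dehydrogenases by way of the electron transfer flavoprotein (chromosome 3, 79603788 to 79629500, minus strand). Etfdh shares 278 bases of exon with 4930579G24Rik on the opposite strand (7239 counts over all libraries against 49368 for Etfdh). Its point estimate was above 0 with MEHP (0.15, 95% interval 0.01 to 0.28; adjusted p = 0.276, edgeR) and with MEHP + ATRA against ATRA (0.19, 0.04 to 0.35; adjusted p = 0.212, edgeR), and neither passed the test. Against vehicle, MEHP + ATRA raised Etfdh by 0.27 ± 0.07 in log2 (adjusted p = 0.0024, edgeR). The 4 libraries held 90.1, 77.9, 90.6 and 92.1 CPM, and 3 of them lay above the vehicle range of 67.6 to 81.6 CPM. Decr1 encodes the dienoyl-CoA reductase that lets unsaturated fatty acids enter the cycle. It was the lowest of the 10 genes in CPM, at 26.1 to 47.2 CPM over all libraries, and passed in no comparison of the main fit. Its log2 fold change there was 0.12 (95% interval -0.06 to 0.30) with MEHP, 0.26 (0.05 to 0.48) with MEHP + ATRA against ATRA and -0.19 (-0.37 to -0.02) with ATRA. In a fit to the lower-range libraries alone, Decr1 (0.27, adjusted p = 0.0344, edgeR) and Etfdh (0.20, adjusted p = 0.0480, edgeR) passed in MEHP + ATRA against ATRA. With ATRA, Decr1 passed in that fit (adjusted p = 0.0332, edgeR) and with no range term (adjusted p = 0.0422, edgeR).

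**Figure D2:**
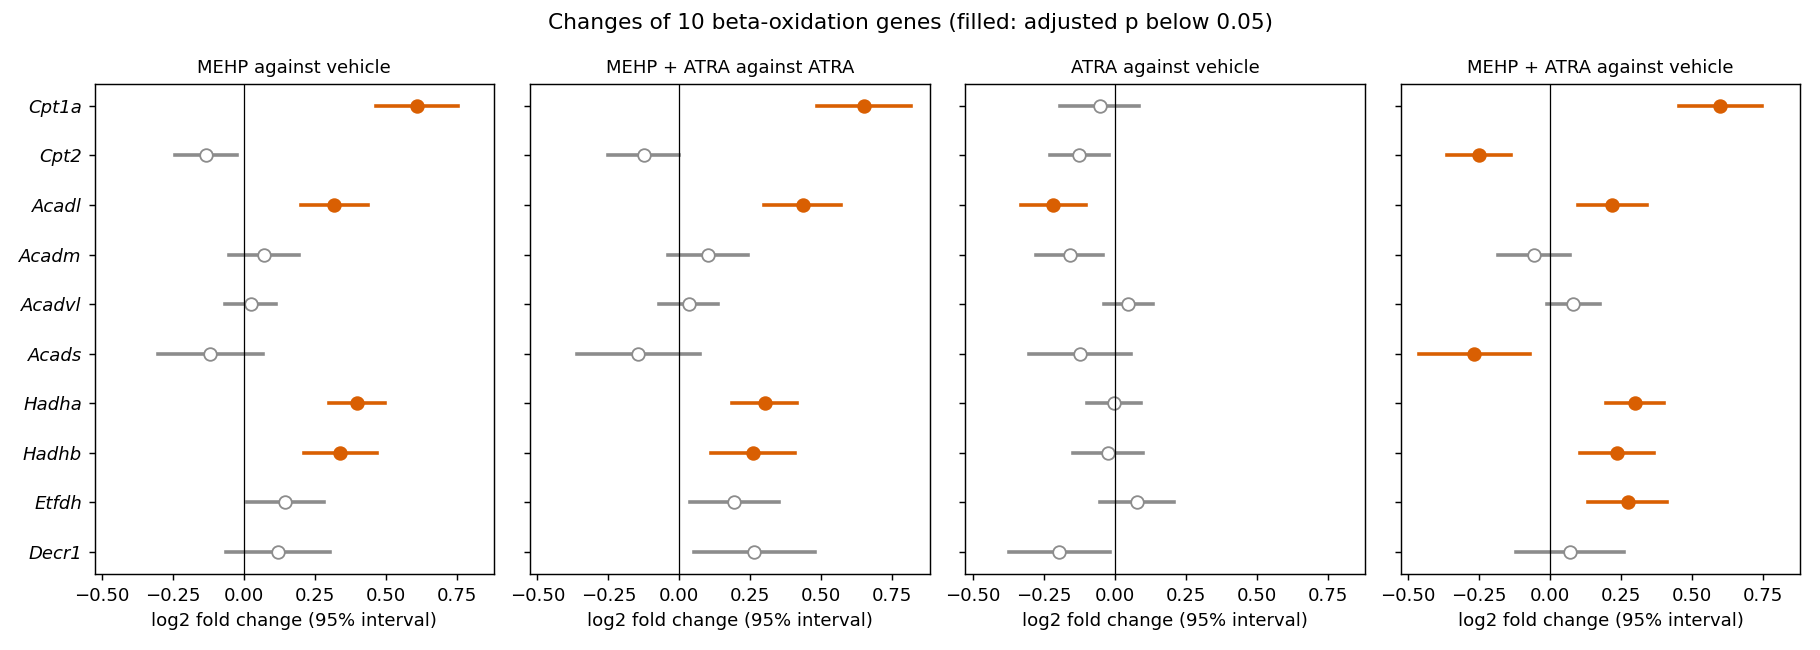
Log2 fold change (x axis) of each of the 10 genes in 4 comparisons, with 95% intervals from the edgeR fit. Filled points passed an adjusted p of 0.05. Cpt1a, Acadl, Hadha and Hadhb are filled on the right of 0 in each comparison that differs by MEHP, and Acadl is the filled point on the left of 0 with ATRA alone.

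In groups that did not overlap, the direction can be read against all genes. All 6 MEHP libraries lay above all 6 vehicle libraries for Cpt1a, Acadl, Hadha and Hadhb, and the same held for 1.2% of all genes tested. All 4 MEHP + ATRA libraries lay above all 5 ATRA libraries for the same 4 genes, and for 3.6% of all genes tested. Against the 9 lower-range vehicle libraries, all ATRA libraries lay below for Acadl, and for 4.54% of all genes tested. All MEHP + ATRA libraries lay above the same 9 for Cpt1a and Hadha (9.14% of all genes tested) and below them for Cpt2 (8.5%). ATRA alone changed 0 genes of the 10 upward and 1 downward (Acadl), where 18.1% of all genes were called, 9.06% higher and 9.03% lower. That count was 2 with DESeq2 and 2 without vehicle replicate 3, 6, 7 or 13, since Acadm or Cpt2 then passed. It was 4 in a fit to the lower-range libraries alone, with Acadm (adjusted p = 0.0221, edgeR), Cpt2 (0.0337) and Decr1 (0.0332) added, all below vehicle. MEHP + ATRA against vehicle called 5 of the 10 higher (Cpt1a, Acadl, Hadha, Hadhb, Etfdh) and 2 lower (Cpt2, Acads), where 29% of all genes were called, 14.3% higher and 14.7% lower. The comparisons of ATRA and of MEHP + ATRA with vehicle share the 9 lower-range vehicle libraries.

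The MEHP differences with and without ATRA were also set against each other in an interaction term. The difference without ATRA comes from the upper range and the one with ATRA from the lower range. Presence of ATRA and range therefore cannot be told apart in this term. None of the 10 genes passed (0 of 10 by edgeR, DESeq2 and limma-voom, and 0 at an unadjusted p below 0.05), where 6 of 19323 genes, or 0.0311%, were called (0.0104% higher, 0.0207% lower). The 95% interval of this difference was -0.18 to 0.26 in log2 for Cpt1a, -0.06 to 0.30 for Acadl, -0.25 to 0.05 for Hadha and -0.28 to 0.12 for Hadhb. Between upper-range and lower-range vehicle libraries 0 of the 10 passed by the same 3 tools, where 0.373% of all genes were called. At an unadjusted p below 0.05 there were 3, and they were Cpt1a (0.14 in log2, higher in the upper range), Acadvl (0.09, higher) and Acadm (-0.11, lower).

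Levels were compared between genes per kilobase of annotated exon in the 15 vehicle libraries. Acadl had the highest level, at 42.4 ± 2.6 CPM per kb (SD, n = 15). Hadha (35.5 ± 1.7), Cpt1a (34.7 ± 3.1), Acads (29.1 ± 3.8), Acadm (27.0 ± 2.4), Cpt2 (26.8 ± 1.8) and Acadvl (22.5 ± 1.3) followed in CPM per kb, each overlapping its neighbour in this order. Hadhb stood below them without overlap at 16.5 ± 1.4 CPM per kb, and Etfdh (9.97 ± 0.94) and Decr1 (8.90 ± 1.1) were lowest and overlapped each other. The exon length joins all annotated exons of a gene, 8730 bases for Hadha and 7505 for Etfdh, so a gene with long rarely used exons has a lower value on this scale.

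Ratios between genes were taken within each library. They restate the changes of single genes given above, so a separation of groups is no further support for those changes. How often other gene pairs separate was not counted. The ratio of Cpt1a to Cpt2, per base of exon, was 1.25 to 1.90 in the 6 upper-range vehicle libraries and 1.97 to 3.11 in the 6 MEHP libraries. It was 1.24 to 1.38 in the 5 ATRA libraries and 2.10 to 2.47 in the 4 MEHP + ATRA libraries. Neither pair of groups overlapped. The ratio of Acadl to Acadvl was 1.65 to 1.91 in upper-range vehicle and 2.10 to 2.46 with MEHP, and 1.53 to 1.70 with ATRA and 1.88 to 2.24 with MEHP + ATRA, again without overlap. Its limit is that reads in the exon bases shared by Acadvl and Dvl2 cannot be told apart. The ratio of Acadl to Acadm did overlap with MEHP, at 1.42 to 1.99 in upper-range vehicle and 1.86 to 2.02 with MEHP, and did not overlap between ATRA (1.36 to 1.57) and MEHP + ATRA (1.65 to 2.03). The ratio of Hadha to Hadhb overlapped in all groups, at 2.03 to 2.33 in upper-range vehicle, 2.09 to 2.55 with MEHP, 2.08 to 2.23 with ATRA and 2.17 to 2.25 with MEHP + ATRA. These ratios are given as a description, and differences between genes were not tested.

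**Figure D3:**
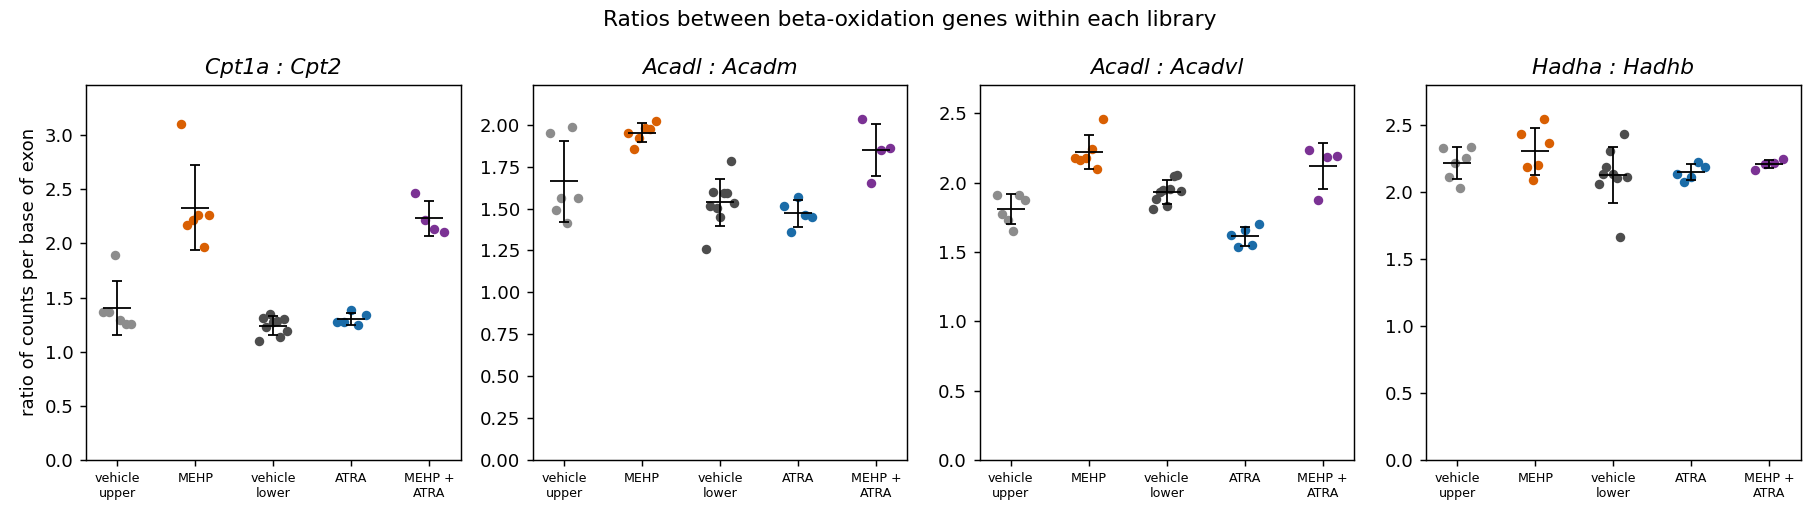
Ratio of the levels of 2 genes within each library, per base of annotated exon (y axis from 0), by group. Points are libraries and bars are the mean ± SD. The ratio of Cpt1a to Cpt2 is 1.25 to 1.90 in upper-range vehicle and 1.97 to 3.11 with MEHP, while the ratio of Hadha to Hadhb overlaps between all groups.

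Correlations between the genes were read in cultures without either compound. Over the 15 vehicle libraries, 45 pairs of the 10 genes were correlated on log2 CPM, taken as deviations from the vehicle mean of each range. Of these, 0 pairs had an adjusted p below 0.05 (permutation test with 100000 resamples, Benjamini-Hochberg over the pairs), with 9 at an unadjusted p below 0.05. The highest was Acadm with Hadhb (Pearson r = 0.72, permutation p = 0.0023, adjusted p = 0.102; Spearman rho = 0.72, permutation p = 0.0031, adjusted p = 0.137), which fell to r = 0.41 without the 2 libraries farthest from the median of Acadm. Within ranges it was 0.66 (lower) and 0.86 (upper). The lowest was Acads with Decr1 (r = -0.70, permutation p = 0.0077, adjusted p = 0.148; rho = -0.61, permutation p = 0.0185, adjusted p = 0.183), with r = -0.50 without the 2 farthest libraries, -0.40 within the lower range and -0.82 within the upper range. Acads had r below 0 with 7 of the other 9 genes. The trifunctional protein pair, Hadha with Hadhb, had r = 0.25 (permutation p = 0.359, adjusted p = 0.538) and rho = 0.41 (permutation p = 0.128, adjusted p = 0.355), with r = 0.58 without the 2 farthest libraries, -0.05 within the lower range and 0.74 within the upper range. In each pair the 2 farthest libraries were chosen on the first gene named alone (Acadm, Acads or Hadha). Libraries extreme for the second gene could therefore remain.

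The 300-base windows around the annotated gene starts (250 bases before and 50 from the start on) were taken from RefSeq on GRCm38.p6, where 9 of the 10 genes had one. Shown here are the window shared by the trifunctional protein genes, those of the other genes that rose with MEHP, and that of Acadvl, which did not pass. Sequences run 5′ to 3′ on the strand of the gene. In Hadhb (chr5:30155003-30155302, plus strand), capitals mark the 228 bases that the window of Hadha on the other strand also covers. In Cpt1a (chr19:3323051-3323350, plus strand) and Acadvl (chr11:70015379-70015678, minus strand), they mark AGGTCA, the letters bound by many nuclear receptors, on either strand. In Acadl (chr1:66863260-66863559, minus strand), which holds no AGGTCA, they mark GGGCGG, the GC box bound by Sp1, on either strand.
Hadhb: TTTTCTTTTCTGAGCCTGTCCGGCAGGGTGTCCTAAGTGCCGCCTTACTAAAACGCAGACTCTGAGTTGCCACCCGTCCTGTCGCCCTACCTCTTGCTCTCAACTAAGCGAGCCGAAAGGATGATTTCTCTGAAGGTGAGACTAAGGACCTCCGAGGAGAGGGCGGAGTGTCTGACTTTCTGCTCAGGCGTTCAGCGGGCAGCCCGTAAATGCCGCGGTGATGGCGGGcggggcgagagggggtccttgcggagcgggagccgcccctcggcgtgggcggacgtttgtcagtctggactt
Cpt1a: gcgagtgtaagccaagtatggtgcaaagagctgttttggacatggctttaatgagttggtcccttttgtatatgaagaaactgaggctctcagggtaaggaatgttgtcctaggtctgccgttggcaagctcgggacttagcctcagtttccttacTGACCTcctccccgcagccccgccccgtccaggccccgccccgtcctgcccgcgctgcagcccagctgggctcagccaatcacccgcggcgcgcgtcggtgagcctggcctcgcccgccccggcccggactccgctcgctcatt
Acadl: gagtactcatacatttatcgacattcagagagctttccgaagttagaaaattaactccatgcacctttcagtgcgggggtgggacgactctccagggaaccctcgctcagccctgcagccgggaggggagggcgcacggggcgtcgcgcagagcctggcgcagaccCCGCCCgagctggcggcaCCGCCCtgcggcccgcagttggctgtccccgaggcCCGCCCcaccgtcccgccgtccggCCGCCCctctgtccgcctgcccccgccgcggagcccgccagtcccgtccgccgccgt
Acadvl: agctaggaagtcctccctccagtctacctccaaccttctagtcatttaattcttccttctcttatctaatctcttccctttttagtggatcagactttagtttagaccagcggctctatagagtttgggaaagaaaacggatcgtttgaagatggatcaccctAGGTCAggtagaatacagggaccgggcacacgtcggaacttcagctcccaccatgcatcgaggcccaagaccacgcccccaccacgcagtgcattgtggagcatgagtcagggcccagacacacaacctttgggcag

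AGGTCA was found on either strand in 3 of the 9 windows, with 1 match each, and in 16.3% of the 32851 windows of all genes. Among genes that rose with MEHP it was in Cpt1a (bases -94 to -89, start site counted as 0) and not in Acadl, Hadha or Hadhb. Among the others it was in Acadvl (-87 to -82) and Acadm (-249 to -244). A pair of such copies 1 base apart, the arrangement that PPAR and RXR bind together, was in none of the 9 windows with up to 2 of 12 letters mismatched (3.86% of all windows), and TNAAGGTCA, the form bound by estrogen-related receptors, was in none (1.28%). GGGCGG was in 7 of the 9, all but Acadm and Acadvl, with 4 copies each in Acadl and Hadhb (35.7% of all windows). The match in Hadha (-188 to -183) is the same stretch as the Hadhb match at -90 to -85, so these windows do not count separately. GC content ran from 50.7% (Acadvl) to 70.3% (Acadl), and its median over all windows was 52.7%, so the share of all windows is not a matched background. GCATGCGC, bound by NRF1 and overlapping no other motif searched, was in Acadm and Etfdh (2.71%), and CCAAT was in Cpt1a and Etfdh (37.4%). A match describes letters only, and a missing match says nothing of sites elsewhere. The RefSeq start lay 182 bases from the files' start in Hadha and 733 in Etfdh, and at most 32 in the other 7.

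The rest of the pathway is given by lists, whose calls follow with MEHP first and MEHP + ATRA against ATRA second. A list name is a chosen label, and the place of the proteins in the cell was not measured. Of 10 other genes of fatty acid activation and carnitine transport, 4 rose and 0 fell with MEHP (median log2 fold change 0.10). The acyl-CoA synthetase genes Acsl4 (0.70 ± 0.08, from 62.2 to 101 CPM) and Acsl3 (0.39 ± 0.07) rose, as did the muscle-type Cpt1b (0.85 ± 0.20), which stood at 1.03 ± 0.10 CPM in vehicle and 1.85 ± 0.47 CPM with MEHP. Slc25a20, the carnitine-acylcarnitine carrier of the inner membrane, rose by 0.23 ± 0.06 (adjusted p = 0.0304, edgeR). Leaving out MEHP replicate 2, 3, 4 or 6 or vehicle replicate 4 or 14 ended that call (adjusted p up to 0.0756, edgeR). With ATRA present 2 rose and 0 fell, Acsl4 (0.46 ± 0.09) and Acsl5 (0.27 ± 0.08, adjusted p = 0.0478, edgeR). Either replicate block ended the Acsl5 call, as did leaving out ATRA replicate 1, 2, 3 or 5, MEHP + ATRA replicate 1, 3 or 4, MEHP replicate 2, 5 or 6 or vehicle replicate 2, 9 or 14 (adjusted p up to 0.283, edgeR). Acsl3 had 0.29 ± 0.08 with ATRA present (adjusted p = 0.0527, edgeR) and passed in 6 alternatives, among them DESeq2 and the replicate block over all libraries (adjusted p = 0.0034 to 0.0489). ATRA alone lowered Acsl5 (-0.44 ± 0.06).

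Of 16 genes listed under other matrix enzymes and electron transfer, 3 rose and 1 fell with MEHP (median 0.08). The matrix acyl-CoA thioesterase gene Acot2 rose by 0.54 ± 0.08, the thiolase gene Acaa2 by 0.32 ± 0.07 and the enoyl-CoA isomerase gene Eci2 by 0.25 ± 0.05. Acat1, the acetoacetyl-CoA thiolase gene, fell by 0.19 ± 0.05 in log2. Hadh (0.09 ± 0.06) and Echs1 (0.07 ± 0.06), which serve short chains, and the flavoprotein genes Etfa (0.14 ± 0.06) and Etfb (0.20 ± 0.06, adjusted p = 0.0515, edgeR) did not pass. With the replicate block Etfb did pass, at an adjusted p of 0.0155 within each range and 0.0389 over all libraries (edgeR). It also passed with DESeq2, at a minimum count of 50, with no range term and without MEHP + ATRA replicate 2 or 3, ATRA replicate 4, MEHP replicate 4 or vehicle replicate 6, 7 or 11. Etfa passed with no range term (adjusted p = 0.014, edgeR) and without vehicle replicate 6 (adjusted p = 0.0092, edgeR). With ATRA present 0 of the 16 passed (edgeR); Acaa2 had 0.18 ± 0.08 and Eci2 0.19 ± 0.06, with an adjusted p of 0.32 and 0.106 (edgeR).

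Outside the mitochondrial spiral, 2 genes of ketone body interconversion and use fell with MEHP, Bdh1 by 0.69 ± 0.09 in log2 and Oxct1 by 0.31 ± 0.06. Each had all 6 libraries below vehicle, as did 0.637% of all genes tested. With ATRA present Bdh1 had -0.47 ± 0.10 (adjusted p = 0.0053, edgeR), a call lost with the replicate block within each range (adjusted p = 0.0683, edgeR), and Oxct1 had -0.21 ± 0.07 (adjusted p = 0.0907, edgeR). With the replicate block Oxct1 was called, at -0.28 within each range (adjusted p = 0.0359, edgeR) and -0.25 over all libraries (adjusted p = 0.0286, edgeR). ATRA alone also lowered Bdh1 (-0.42 ± 0.08) and Oxct1 (-0.20 ± 0.06). Of 15 genes listed under peroxisomal beta-oxidation, 2 rose and 0 fell with MEHP. They were Ech1 (0.49 ± 0.05, and 0.40 ± 0.06 with ATRA present), a dienoyl-CoA isomerase gene, and the peroxisomal fatty acyl transporter gene Abcd3 (0.28 ± 0.06). The Abcd3 call was lost in libraries of 1 range (adjusted p = 0.0688, edgeR). With ATRA present 1 of the 15 rose (Ech1) and 0 fell, and Abcd3 had 0.20 ± 0.07 (adjusted p = 0.142, edgeR), which passed in libraries of 1 range (adjusted p = 0.0171, edgeR).

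Among 12 transcriptional regulators, Ppargc1a, the coactivator PGC-1α, was the 1 gene called with MEHP, at 0.53 ± 0.15 (adjusted p = 0.038, edgeR) and 5.83 ± 1.2 CPM in vehicle against 8.43 ± 1.8 CPM. Leaving out MEHP replicate 1, 3, 4 or 6 or vehicle replicate 3, 4, 10 or 11 ended the call (adjusted p up to 0.148, edgeR), as did no filter on low counts (0.0534) and libraries of 1 range (0.121). With ATRA present Ppargc1a rose by 0.74 ± 0.17 (adjusted p = 0.0121, edgeR), with all 4 libraries above all 5, and this call was lost without MEHP + ATRA replicate 1 (adjusted p = 0.0527, edgeR). Ppara had -0.24 ± 0.12 (adjusted p = 0.323, edgeR). Of 6 genes of malonyl-CoA metabolism and AMPK, which set the brake on Cpt1a, Fasn was called (0.34 ± 0.09, adjusted p = 0.025, edgeR), a call lost without MEHP replicate 1 (adjusted p = 0.0821, edgeR) and in libraries of 1 range (adjusted p = 0.112, edgeR). With ATRA present Fasn had 0.29 ± 0.11 (adjusted p = 0.17, edgeR), and was called with the replicate block within each range (0.43, adjusted p = 0.0384, edgeR). Acaca had 0.22 ± 0.07 with MEHP (adjusted p = 0.0681, edgeR). With the replicate block Acaca was called, at an adjusted p of 0.0229 within each range and 0.0355 over all libraries (edgeR), as it was with DESeq2, with no range term and without ATRA replicate 3 or vehicle replicate 3 or 10.

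Of 8 PPAR targets outside oxidation, 4 rose and 0 fell with MEHP: the lipoprotein lipase inhibitor gene Angptl4 (1.39 ± 0.07), the cytosolic thioesterase gene Acot1 (0.63 ± 0.08), the lipid droplet gene Plin2 (0.37 ± 0.05) and the fatty acid transporter gene Cd36 (0.46 ± 0.13). With ATRA present 3 rose, Angptl4 (1.10 ± 0.08), Acot1 (0.58 ± 0.10) and Plin2 (0.27 ± 0.05), the last lost with the replicate block within each range (adjusted p = 0.0711, edgeR). Reads of Acot1 and Acot2 can be shared with near-identical paralogs. Of 21 genes of the tricarboxylic acid cycle and pyruvate dehydrogenase, Idh2 was called (0.16 ± 0.04, adjusted p = 0.0201, edgeR; without MEHP replicate 1, 5 or 6 or vehicle replicate 4 or 10 its adjusted p was 0.0511 to 0.074, with no filter on low counts or in libraries of 1 range 0.0712 to 0.121). The list median was -0.02. With ATRA present 1 of the 21 rose and 0 fell, Idh2 (0.17 ± 0.05, adjusted p = 0.0492, edgeR). That call was lost with limma-voom, no filter, no range term or the replicate block within each range. It was also lost in 13 fits that each left out a library. ATRA alone lowered Idh2 (-0.14 ± 0.04, adjusted p = 0.0159, edgeR), a call lost with no filter (adjusted p = 0.0839, edgeR) and without ATRA replicate 3 (0.0532). Of 9 mitochondrially encoded genes none passed with MEHP or with MEHP + ATRA against ATRA (0 by edgeR), and their medians were -0.03 and 0.04.

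**Figure D4:**
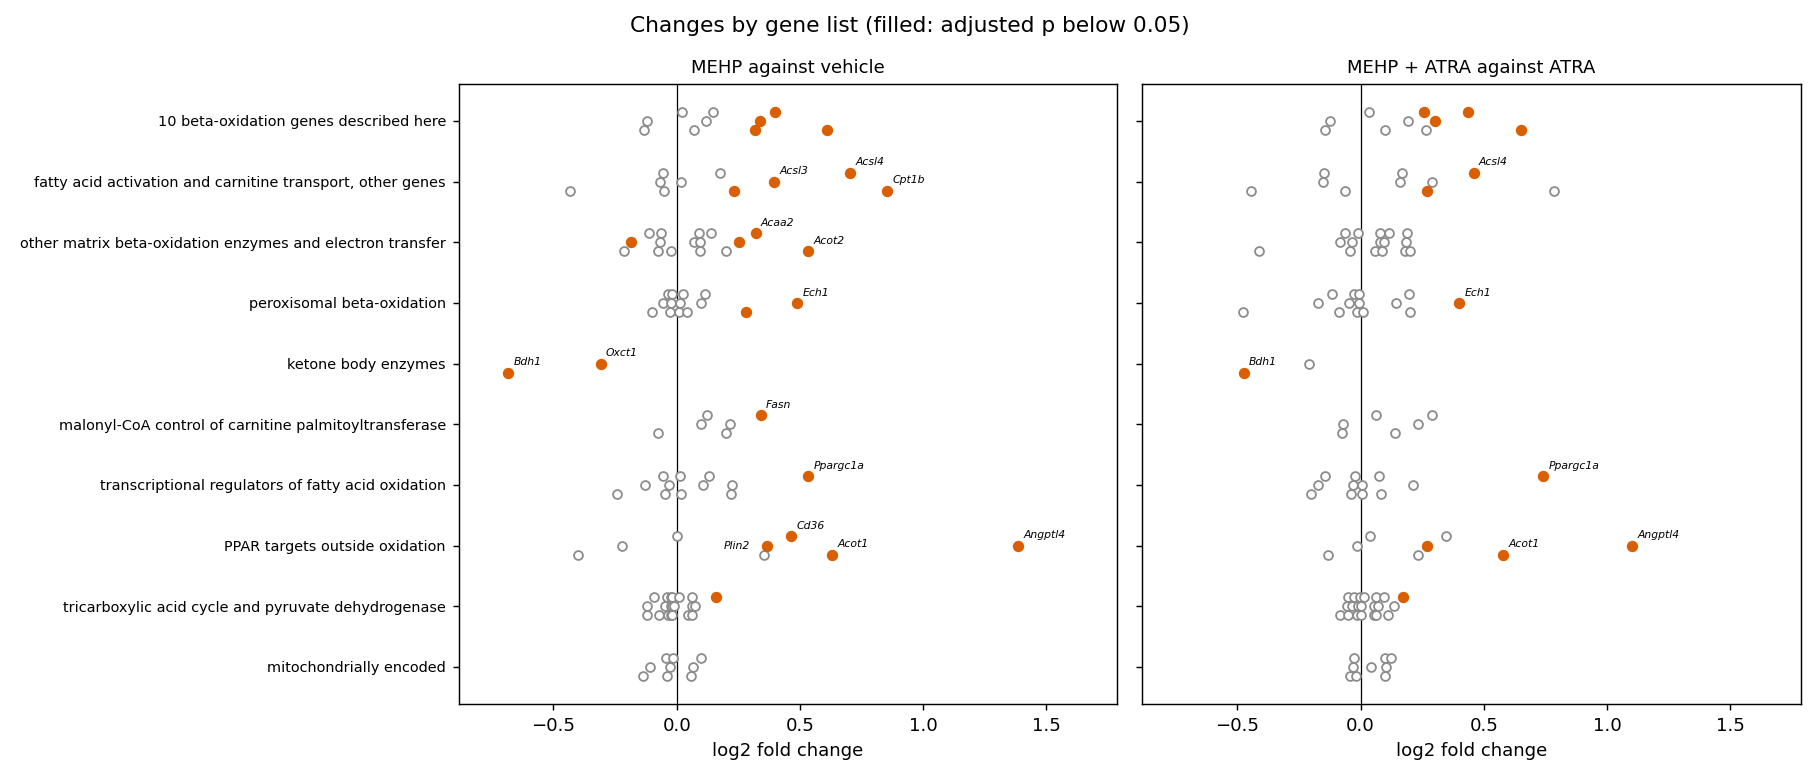
Log2 fold change (x axis) of genes in the 10-gene set and in 9 further lists, without the genes not reported here, with MEHP on the left and MEHP + ATRA against ATRA on the right. Filled points passed an adjusted p of 0.05. The point of Angptl4 lies above 1 in both panels, and the tricarboxylic acid cycle and mitochondrially encoded lists cluster around 0.

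The genes whose pattern was nearest to the mean pattern of the 10, as deviations from vehicle of the same range over the 30 libraries, were Acaa2 (Pearson r = 0.90), Tsc22d1 (0.86), Ddit4l (0.82), Fdft1 (0.82), Atp13a3 (0.81), Rdh11 (0.80), Idh2 (0.80) and Cbfb (0.80). All points share the libraries and their scaling, and treated libraries contribute to r, so it is a description with no p. Acaa2 was the most abundant of the named beta-oxidation genes per length, at 178 ± 18 CPM per kb in upper-range vehicle (n = 6).

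Markers of cell types were read beside these values. With MEHP, 3 of 7 Sertoli markers rose and 1 fell, 2 of 4 endothelial markers rose, and of the Leydig (5), germ cell (5), interstitial progenitor (4), macrophage (4) and erythroid (4) lists 0 passed (edgeR). Summed endothelial markers were 146 to 243 CPM in upper-range vehicle and 155 to 275 CPM with MEHP. Of 3 tested adipocyte markers 0 passed (edgeR), and the list summed to 65.3 to 83.4 CPM in upper-range vehicle and 68.1 to 88.7 CPM with MEHP, mostly Plin1, with Lep at 0 to 0.114 CPM. With ATRA, 6 of 7 Sertoli markers rose and 1 fell, 2 of 4 interstitial progenitor and 1 of 5 germ cell markers fell, and 1 Leydig, 1 endothelial and 1 mesonephros or kidney marker rose. With MEHP + ATRA against vehicle, 6 Sertoli markers rose and 1 fell, 2 progenitor and 2 germ cell markers fell, 1 Leydig and 1 endothelial marker rose, and of the mesonephros and kidney markers 1 rose and 1 fell. Against ATRA, 1 progenitor marker fell and no other marker passed in these lists (edgeR). Progenitor markers summed to 1835 to 1976 CPM in lower-range vehicle, 1419 to 1573 CPM with ATRA and 1296 to 1436 CPM with MEHP + ATRA. The part of these markers in the results was not tested. In whole tissue, fewer cells of a type and less RNA per cell cannot be told apart.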

How the data were processed

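Per the file headers, each library has 1 deposited table of unnormalized read counts by gene from featureCounts. The submitters' processing notes name bcl2fastq 2.20, Trimmomatic 0.36, STAR 2.5.2b, Subread 1.5.2 and DESeq2. Genome build, annotation and strandedness of the counting: not given in the sources used here. Symbols were matched by Ensembl identifier (99.3% matched). No 2 libraries held identical counts.

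Counts were fitted with edgeR 4.0.16 in R 4.3.3: filterByExpr with a minimum count of 10, TMM scaling (factors 0.975 to 1.023) and 1 quasi-likelihood model of group and range over 30 libraries (residual degrees of freedom 25, common biological coefficient of variation 12.7%). F tests were two-sided, with Benjamini-Hochberg adjustment over 19323 genes and a threshold of 0.05. Standard errors were derived from the F statistic. The code was tested on simulated data. DESeq2 1.42.0, limma-voom (limma 3.58.1), other size factors, other filters, the range term, fits to 1 range and leaving out each library were the alternatives.

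Treated and vehicle libraries were equal in number under each first title number of a range. Over these 9 numbers, deviations of treated and vehicle libraries from their group means correlated at 0.111 to 0.756, so the number was taken as a pairing, and fits with a replicate block on it are given where they change the call of a printed value. That balance did not extend to MEHP + ATRA against ATRA. In the lower range, numbers 411 and 412 held both groups, 413 no ATRA library, and 414 and 415 no MEHP + ATRA library. This comparison is therefore partly confounded with the first title number.

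The 10 genes, the 9 further lists and the tests were chosen with earlier results of these data known. Named were the 10 genes, from each list up to 3 genes with the smallest p with MEHP and up to 2 with MEHP + ATRA against ATRA, a panel of 12 genes whatever their result, and the 8 nearest patterns. Some genes that this rule names are not reported here. Acat1 and Cd36 were named after their values were seen, to complete a count.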

Additional observations from a re-analysis of the deposited data

Results flagged for a closer look

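In 5 of 50 sets of values (10 genes in 5 groups of libraries), the highest or lowest library stood apart from the rest by Dixon's test at the 95% level, which chance gives in about 1 of 20 sets. Cpt1a was at 188 CPM (187.8) in upper-range vehicle replicate 6, where the others held 145 to 160 CPM, and at 308 CPM (307.62) in MEHP replicate 1, where the others held 214 to 245 CPM. These 2 libraries share their first title number. Without any one library, the log2 fold change of Cpt1a with MEHP stayed between 0.53 and 0.67. Cpt1a was also at 148 CPM (148.05) in ATRA replicate 5, beside 136 to 137 CPM in the other 4. Acads was at 45.7 CPM (45.665) in the same upper-range vehicle replicate 6, beside 69.9 to 80.4 CPM. Etfdh was at 77.9 CPM (77.886) in MEHP + ATRA replicate 2, beside 90.1 to 92.1 CPM.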

How the results depend on the processing

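Over 342 results and 13104 alternative values, 0 reversed, 12821 kept direction and call, 120 lost the call, 129 gained it and 34 counts moved by over 1.5 times. The count of the 10 genes called was 4 to 6 with MEHP, 6 to 7 with MEHP + ATRA against vehicle, 3 to 6 with MEHP + ATRA against ATRA and 0 for the interaction and the range in every alternative fitted. With ATRA it was 2 with DESeq2, 2 with no range term, 4 with libraries of 1 range and 1 to 2 when each library was left out. All genes called with MEHP numbered 2229 with no range term and 439 with libraries of 1 range (668 to 1151 leaving out each library). For MEHP + ATRA against ATRA they were 967 with libraries of 1 range and 1371 with the replicate block over all libraries (340 to 689 leaving out each, the lowest without MEHP + ATRA replicate 1). For the interaction they were 12 with DESeq2, 10 with no range term, and 2 and 3 with the replicate block within ranges and over all libraries (3 to 8 leaving out each). For the range in vehicle they were 338 with DESeq2, 19 with no filter, 109 at a minimum count of 50 and 42 with the replicate block over all libraries (10 to 169 leaving out each). The cause was not tested. Beyond the calls named with their block value, Etfdh in MEHP + ATRA against ATRA gained a call with the block over all libraries (0.25, adjusted p = 0.0487, edgeR), and the block changed no other call among the 10 genes. Hadhb in that comparison was also lost with no filter (adjusted p = 0.0569, edgeR), and Acads with MEHP + ATRA against vehicle (0.0658). A fit to 1 range could not be made for the interaction or the range, nor a fit with no range term or with blocks within ranges for the range itself. With 4 to 6 treated libraries a group, small differences can go undetected. The printed 95% intervals are not adjusted for the number of genes, so an interval that leaves out 0 can belong to a gene that was not called.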
